A study of Mus musculus with 7 samples.

Results

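The genes described here make up the MHC class II pathway, followed in mouse spleen cells enriched for natural killer (NK) cells and cultured for 8 h with interleukin 2 (IL2) or without it. They were chosen by name and role: the regulator Ciita, the chain genes H2-Aa, H2-Ab1 and H2-Eb1, the invariant chain gene Cd74, the peptide exchange genes H2-DMa, H2-DMb1 and H2-DMb2, and the exchange inhibitor genes H2-Oa and H2-Ob. Of these 10 genes, 8 had a probe of their own among 19752 genes measured, each with 1 probe. H2-DMb1 and H2-DMb2 were read only by a probe that carries both symbols, which is given apart and was not part of the tests. The IL2 group held 4 arrays (replicates 1 to 4) of cells given IL2 at 250 U/ml throughout the 8 h, and the untreated group held 3 arrays (replicates 2 to 4) of cells kept as long without cytokine. The source was spleen of C57BL/6 males aged 6 weeks, and cells were enriched with an EasySep kit that removes other cell types, with NK1.1 given by the labels as their marker. C57BL/6 mice carry a defect in H2-Ea, so that the product of H2-Eb1 lacks its usual partner chain. No label says whether replicates were separate mice or cultures, or whether mice were pooled, and p-values therefore describe the array-to-array spread alone, which may be technical.

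MHC class II molecules are pairs of an alpha and a beta chain that carry peptides from the endosome to the cell surface, where CD4 T cells read them. The invariant chain fills the groove until proteases cut it away, the H2-DM heterodimer then exchanges its last fragment for peptides, and the H2-O heterodimer holds H2-DM back. The whole set is switched on by the coactivator CIITA, which does not bind DNA itself but joins RFX, CREB and NF-Y factors at the X and Y boxes of class II promoters. B cells, dendritic cells and macrophages are the best known class II cells of the spleen. Interferon-gamma induces Ciita in many other cells.

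Promoter windows at RefSeq starts are shown for 4 of the genes, and binding of CIITA was not measured. These are the genes with an unadjusted limma p under 0.05 and a window in the RefSeq table (H2-Aa, H2-Eb1, H2-Ob) and H2-DMa. The estimate of H2-DMa had the opposite sign. Each window runs from 250 bases before to 50 bases after a RefSeq start in build GRCm38.p6, 5′ to 3′ on the gene's strand, and 7 of the 10 genes had at least 1 window. The H2-Aa window is chr17:34287774-34288073, minus strand. The H2-Eb1 window is chr17:34305617-34305916, plus strand. The H2-Ob window is chr17:34238655-34238954, plus strand. The H2-DMa window is chr17:34122582-34122881, plus strand, the first of 2 for that gene; it holds neither motif searched, while the other window of H2-DMa, not printed, holds GATTGG at base -199. Capitals mark matches on either strand to AACNGATG, letters of the X box core, and to GATTGG, letters of the Y box core. No match of 1 motif overlapped a match of the other in these windows, and both motifs were chosen after the windows had been read.
H2-Aa: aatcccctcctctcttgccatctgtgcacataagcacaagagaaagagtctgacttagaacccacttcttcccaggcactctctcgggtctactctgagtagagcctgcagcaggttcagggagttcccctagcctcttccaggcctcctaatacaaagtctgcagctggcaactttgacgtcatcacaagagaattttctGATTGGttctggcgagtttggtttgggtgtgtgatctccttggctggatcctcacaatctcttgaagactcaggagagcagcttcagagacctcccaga
H2-Eb1: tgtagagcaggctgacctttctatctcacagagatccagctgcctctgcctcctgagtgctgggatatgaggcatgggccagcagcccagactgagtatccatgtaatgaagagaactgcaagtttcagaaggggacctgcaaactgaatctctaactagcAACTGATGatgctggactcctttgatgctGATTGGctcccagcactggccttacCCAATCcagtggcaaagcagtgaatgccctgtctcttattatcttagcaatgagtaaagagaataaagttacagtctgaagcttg
H2-Ob: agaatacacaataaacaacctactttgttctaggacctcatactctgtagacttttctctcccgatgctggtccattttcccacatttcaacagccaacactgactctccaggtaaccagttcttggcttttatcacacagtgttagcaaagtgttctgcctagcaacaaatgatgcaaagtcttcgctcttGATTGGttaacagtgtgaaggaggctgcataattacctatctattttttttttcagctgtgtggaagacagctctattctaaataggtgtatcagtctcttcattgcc
H2-DMa: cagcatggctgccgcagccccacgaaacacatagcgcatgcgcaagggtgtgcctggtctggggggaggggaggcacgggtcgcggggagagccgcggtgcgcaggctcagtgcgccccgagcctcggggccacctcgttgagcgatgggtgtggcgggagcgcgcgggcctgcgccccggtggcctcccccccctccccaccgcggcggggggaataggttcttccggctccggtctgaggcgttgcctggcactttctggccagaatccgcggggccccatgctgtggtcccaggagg
Counted from the start, the Y core began at base -49 in H2-Aa, -60 in H2-Eb1 and -58 in H2-Ob, and a further match on the other strand lay closer to the start of H2-Eb1. Over all 8 windows of the class II genes, 7 held GATTGG, which 16.1% of the 32851 windows of all genes held. The letters AACNGATG stood in 3 of the 8, those of H2-Eb1, H2-DMb1 and H2-DMb2, against 2.32% of all windows, and each of these 3 also held a Y core, as 0.335% of all windows did. Between the X and the nearest Y core lay 21 bases in H2-Eb1 and 22 in H2-DMb1 and H2-DMb2. Of 7 windows of neighbouring genes in the class II region, 3 held GATTGG and 1 held AACNGATG, that of the class II gene H2-Eb2, where 21 bases lay between the X and the Y core. A match is a run of letters and not a bound site, and a window without one says nothing of the factor.

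Before the results, the cell markers of these arrays need stating. At an adjusted p under 0.05, limma called 2.08% of all 19752 genes higher with IL2 and 0.901% lower. NK cell markers were measured in 14 genes, of which limma called 7 higher with IL2 and 0 lower, and their summed linear intensity was 27999 to 33534 in the IL2 arrays and 8731 to 13534 in the untreated arrays. Of 15 B cell markers measured, 1, Fcer2a, fell, all 15 had a negative estimate (median log2 fold change -0.29), and their sum was 17897 to 18945 in the IL2 arrays against 20666 to 24627 in the untreated arrays. Fcer2a, the low-affinity IgE receptor, fell by 0.98 (SE 0.15, limma adjusted p = 0.0172), a call lost without IL2 replicate 2 or 3 or any 1 untreated array. Of 15 macrophage and monocyte markers 6 fell, with sums of 10629 to 12810 in the IL2 arrays and 20020 to 22606 in the untreated arrays. Of those, 3 fell without IL2 replicate 2 or untreated replicate 4. Of 12 conventional dendritic cell markers 1 fell, Cd209a, a C-type lectin (-1.71, SE 0.14, limma adjusted p = 0.00147), and the sums were 2750 to 3078 and 2854 to 3681. Of the 12 estimates 6 were negative and 6 positive, with a median log2 fold change of -0.02. Of 7 plasmacytoid dendritic cell markers and 12 T cell markers limma called 0 either way at an adjusted p under 0.05. At an unadjusted p under 0.05 there were 3 and 0, beside 13.5% of all genes. The 7 plasmacytoid estimates went both ways, 3 negative and 4 positive, from -0.33 to 0.75 with a median of 0.11. No marker was at 0, since these intensities have no zero. Fewer cells of a type and less RNA per cell cannot be told apart in such samples, and the part of B cells or myeloid cells in the class II values was not tested.

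After 8 h with IL2, none of the 8 class II genes with a probe of their own passed the test in either direction. With the adjusted p (Benjamini-Hochberg) held to the 0.05 threshold, limma called 0 of 8 higher and 0 of 8 lower. The same fit called 2.08% of the 19752 genes higher, 0.901% lower and 2.98% in either direction. A separate fit, adjusted over only the 9876 genes of at least median signal, called 8.05% of those in either direction. All 8 class II genes belong to these 9876, and 0 of the 8 passed in that fit. Over all genes the calls were 410 higher and 178 lower, and 694 and 577 after the arrays were quantile normalized again, where still 0 of the 8 passed. At an unadjusted p under 0.05 there were 3 of 8, H2-Aa, H2-Eb1 and H2-Ob, all with lower values in the IL2 arrays, beside 13.5% of all genes in either direction and 4.67% with lower values. The estimates ran from -0.33 for H2-Aa to 0.24 for H2-DMa on the log2 scale, 6 of 8 were negative, and their median was -0.22, against -0.01 for all genes. The 95% intervals of the fold change together ran from 0.638, the lower bound of H2-Aa, to 1.43, the upper bound of H2-DMa. A 2-fold change in either direction therefore lay outside the interval of each of the 8 genes.

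**Figure D1:**
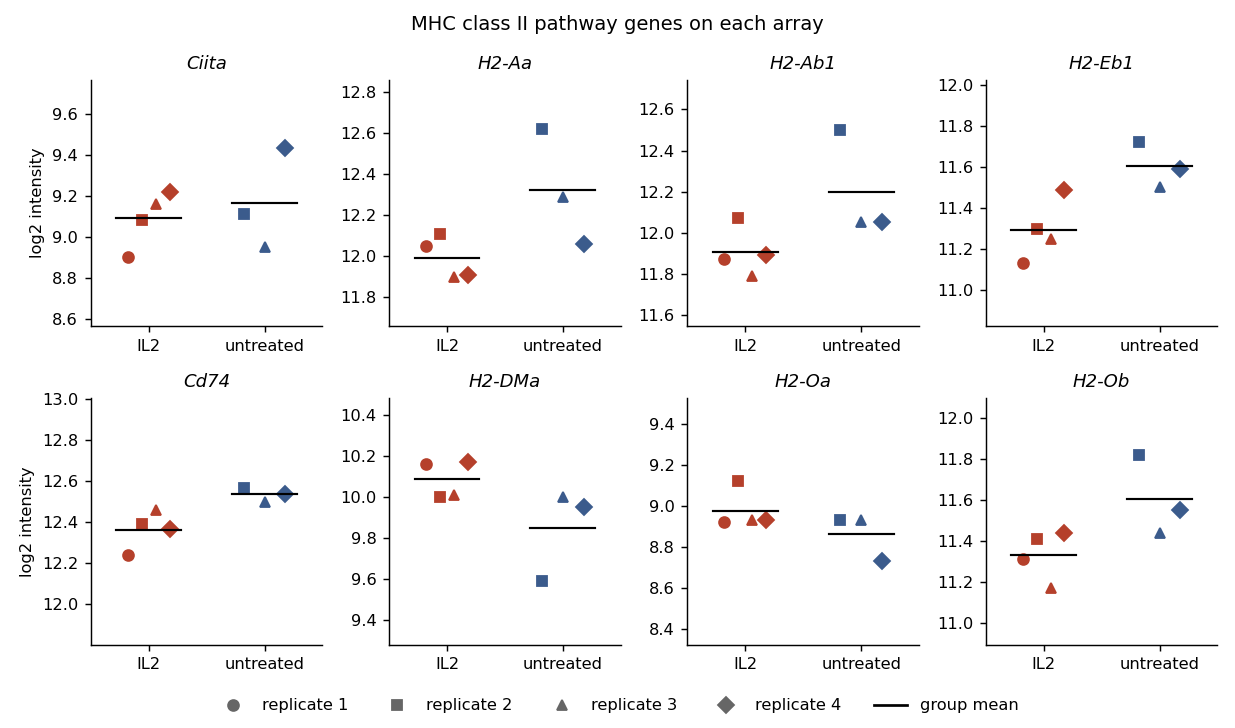
Log2 intensity of the 8 class II genes on each of 7 arrays, IL2 arrays in red and untreated arrays in blue, with replicate numbers as symbols and group means as lines; every panel spans 1.2 log2 units. The groups overlap in 6 of the 8 panels, and untreated replicate 2 is the highest array for 5 genes.

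Ciita, the master regulator of the pathway, had log2 intensities of 8.90, 9.08, 9.16 and 9.22 in the IL2 arrays and 9.11, 8.95 and 9.43 in the untreated arrays. The groups overlapped over most of their range, with IL2 replicate 1 the lowest array and untreated replicate 4 the highest. The fold change with IL2 was 0.949, with a 95% interval of 0.767 to 1.17 (log2 fold change -0.08, SE 0.13, limma adjusted p = 0.883). Ciita is transcribed from alternative promoters that differ between dendritic cells, B cells and interferon-treated cells, and its 1 probe gives 1 value for all of them. Without untreated replicate 4 the estimate was 0.06, of the other sign.

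The classical chain genes were lower in the IL2 arrays by estimates of similar size, none of which passed the test. H2-Aa, the alpha chain of the I-A molecule, had 12.05, 12.11, 11.90 and 11.91 in the IL2 arrays and 12.62, 12.29 and 12.06 in the untreated arrays. Only untreated replicate 4 overlapped the IL2 arrays, and the log2 fold change was -0.33 (SE 0.14, limma unadjusted p = 0.0446, adjusted p = 0.351). H2-Ab1, the matching beta chain, had 11.87, 12.07, 11.79 and 11.89 in the IL2 arrays and 12.50, 12.05 and 12.05 in the untreated arrays, and its estimate was -0.29 (SE 0.13, limma adjusted p = 0.406). For this gene untreated replicate 2 stood above all other arrays, and the other untreated arrays lay just below IL2 replicate 2.

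H2-Eb1, the beta chain of the I-E molecule, had the smallest p of the set. Its values were 11.13, 11.30, 11.25 and 11.49 in the IL2 arrays and 11.72, 11.50 and 11.59 in the untreated arrays. The groups did not overlap, but the gap between IL2 replicate 4 and untreated replicate 3 was 0.007 on the log2 scale. The log2 fold change was -0.31 (SE 0.11), a fold change of 0.804 with a 95% interval of 0.678 to 0.955 (limma unadjusted p = 0.0192, adjusted p = 0.229). H2-Aa and H2-Ab1 had fold changes of 0.796 (0.638 to 0.993) and 0.817 (0.66 to 1.01).

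Cd74, which encodes the invariant chain, had the narrowest range over the 7 arrays of all 8 genes. It had 12.24, 12.39, 12.46 and 12.37 in the IL2 arrays and 12.57, 12.50 and 12.54 in the untreated arrays. Every IL2 array lay below every untreated array, with a gap of 0.043. Such a separation, with the IL2 arrays below, was seen for 2 of the 8 class II genes, Cd74 and H2-Eb1, and for 3.38% of all genes, and the opposite separation for 0 of 8 and 6.25% of all genes. The fold change of Cd74 was 0.886 (95% interval 0.78 to 1.01, limma adjusted p = 0.402).

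H2-DMa, the alpha chain of the peptide exchange factor, was 1 of the 2 genes with a positive estimate. Its linear intensities were 1147, 1026, 1033 and 1155 in the IL2 arrays and 768, 1026 and 987 in the untreated arrays. Untreated replicate 2, the highest array for the chain genes, was the lowest here. The log2 fold change was 0.24 (SE 0.12, limma adjusted p = 0.45), and 0.11 without untreated replicate 2. The probe shared by H2-DMb1 and H2-DMb2, the beta chain genes that pair with it, had 9.75, 10.05, 9.71 and 10.03 in the IL2 arrays and 10.33, 9.83 and 9.89 in the untreated arrays. Its groups overlapped, with a difference of -0.13 and an exact two-sided permutation p of 0.571 over 35 splits of the arrays, where the smallest possible p is 0.0571, and RNA of the 2 genes cannot be told apart on it.

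The genes of the exchange inhibitor differed in the sign of their estimates. H2-Ob, its beta chain, had 11.31, 11.41, 11.17 and 11.44 in the IL2 arrays and 11.82, 11.44 and 11.55 in the untreated arrays. IL2 replicate 4 and untreated replicate 3 met at the same level, and the log2 fold change was -0.27 (SE 0.11, limma unadjusted p = 0.0469, adjusted p = 0.361). H2-Oa, the alpha chain, had 8.92, 9.12, 8.93 and 8.93 in the IL2 arrays and 8.93, 8.93 and 8.73 in the untreated arrays. Most of its arrays stood at nearly 1 level, with IL2 replicate 2 above it and untreated replicate 4 below. The log2 fold change of H2-Oa was 0.11 (SE 0.09, limma adjusted p = 0.701), and it was -0.02 after the arrays were quantile normalized again.

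Part of the spread among the class II genes lay in 1 array. Untreated replicate 2 was the highest array for 5 of the 8 genes (H2-Aa, H2-Ab1, H2-Eb1, Cd74 and H2-Ob) and for 12 of the 15 B cell markers, against 1998 of all 19752 genes. Relative to each gene's own mean, the 3 classical chain genes averaged -0.18, -0.04, -0.22 and -0.10 in IL2 replicates 1 to 4 and 0.42, 0.08 and 0.04 in untreated replicates 2 to 4. The B cell markers averaged -0.22, -0.10, -0.18 and -0.12 in the same IL2 arrays and 0.45, 0.05 and 0.13 in the untreated arrays. Both sets thus had their highest value in untreated replicate 2 and lower values in each IL2 array than in any untreated array. The macrophage and monocyte markers, at -0.62, -0.54, -0.24 and -0.18 in the IL2 arrays and 0.65, 0.42 and 0.51 in the untreated arrays, did the same. So did the neutrophil markers, at -0.55, -0.36, -0.33 and -0.27 in the IL2 arrays and 0.77, 0.42 and 0.32 in the untreated arrays. None of the other marker sets had its highest value in untreated replicate 2. In untreated replicates 2 to 4, conventional dendritic cell markers averaged 0.11, -0.02 and 0.12 and plasmacytoid dendritic cell markers -0.16, -0.17 and 0.07. T cell markers averaged -0.32, 0.09 and 0.35 in those arrays, and NK cell markers -0.38, -0.97 and -0.94. Without untreated replicate 2, the log2 fold changes of H2-Aa, H2-Ab1 and H2-Ob were -0.18, -0.14 and -0.16, those of H2-Eb1 and Cd74 stayed near the values over all arrays, at -0.26 and -0.16, and 0 of the 8 genes had an unadjusted p under 0.05. The estimates also differed in size between arrays by the style of their sample titles. Over the 4 arrays with the time in their title (IL2 replicates 3 and 4, untreated replicates 3 and 4), H2-Aa, H2-Ab1, H2-Eb1 and H2-Ob had log2 fold changes of -0.27, -0.21, -0.18 and -0.19. Over the 3 without it, of which untreated replicate 2 is the only untreated array, the same genes had -0.54, -0.53, -0.51 and -0.46, and H2-DMa had 0.50, beside 0.12 over the others.

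**Figure D2:**
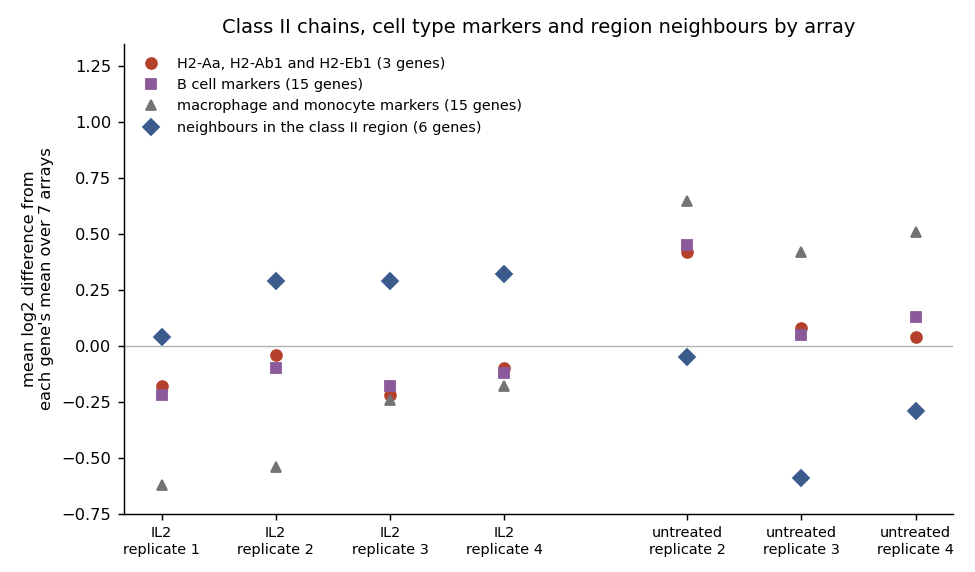
Mean log2 difference of each gene from its own mean over the 7 arrays, for the 3 classical chain genes, 15 B cell markers, 15 macrophage and monocyte markers and 6 neighbours in the class II region, by array with the IL2 arrays on the left. The chain genes and the B cell markers stand highest in untreated replicate 2, at 0.42 and 0.45, and the neighbours are higher in each IL2 array than in any untreated array.

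The factors that bind class II promoters together with CIITA were not called either. All 7 genes of the RFX, NF-Y and CREB factors were measured, and limma called 0 of them. At an unadjusted p under 0.05 there was 1 of 7, near the share of 13.5% of all genes. That gene was Rfx5, the large subunit of RFX, with 8.17, 8.32, 8.33 and 8.42 in the IL2 arrays and 8.22, 7.42 and 7.68 in the untreated arrays. Again untreated replicate 2 stood apart from the other untreated arrays, here within the range of the IL2 arrays. The log2 fold change of Rfx5 was 0.54 (SE 0.18, limma adjusted p = 0.216), and 0.76 without untreated replicate 2, where it passed the test (limma adjusted p = 0.0274). Without untreated replicate 3 it was 0.36 (limma adjusted p = 0.508), and it was 0.83 over the arrays with the time in their title and 0.03 over those without it. The other RFX subunits, Rfxap and Rfxank, had 0.07 and -0.16. The NF-Y genes Nfya, Nfyb and Nfyc had 0.03, 0.20 and 0.15, and Creb1 had -0.22, which passed only after quantile normalization again (-0.35, limma adjusted p = 0.0437). Of these small differences, that of Nfya was of the other sign after quantile normalization again, at -0.10.

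Genes known to act upstream of Ciita did change while Ciita did not pass. Of 10 measured, 3 rose and 1 fell, beside 2.08% of all genes called higher and 0.901% called lower. Socs1, an inhibitor of JAK kinases, had 9.75, 10.04, 9.94 and 9.93 in the IL2 arrays and 7.06, 7.04 and 7.12 in the untreated arrays, a log2 fold change of 2.84 (SE 0.09). Irf1, the interferon regulatory factor that drives the interferon-responsive Ciita promoter, had linear intensities of 1328, 1898, 1897 and 1936 in the IL2 arrays and 721, 455 and 514 in the untreated arrays. Its log2 fold change was 1.66 (SE 0.19, limma adjusted p = 0.00534), and leaving out any 1 of the 7 arrays did not end the call. With the mean of all probes of Irf1 in place of the brightest it was 0.99 (limma adjusted p = 0.0115). Irf8, a factor of B cells and myeloid cells, rose by 1.22 (SE 0.18, limma adjusted p = 0.0134), and Ifngr2, a chain of the interferon-gamma receptor, fell by 0.84 (SE 0.15, limma adjusted p = 0.0312). The last 2 were named after their values had been seen. Irf8 lost its call without IL2 replicate 2 or 3 or untreated replicate 4, and Ifngr2 without IL2 replicate 2 or 3 or untreated replicate 2 or 4. Interferon receptor, JAK and interferon regulatory genes are set beside Ciita here as values, and the difference between their changes and that of Ciita was not tested.

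**Figure D3:**
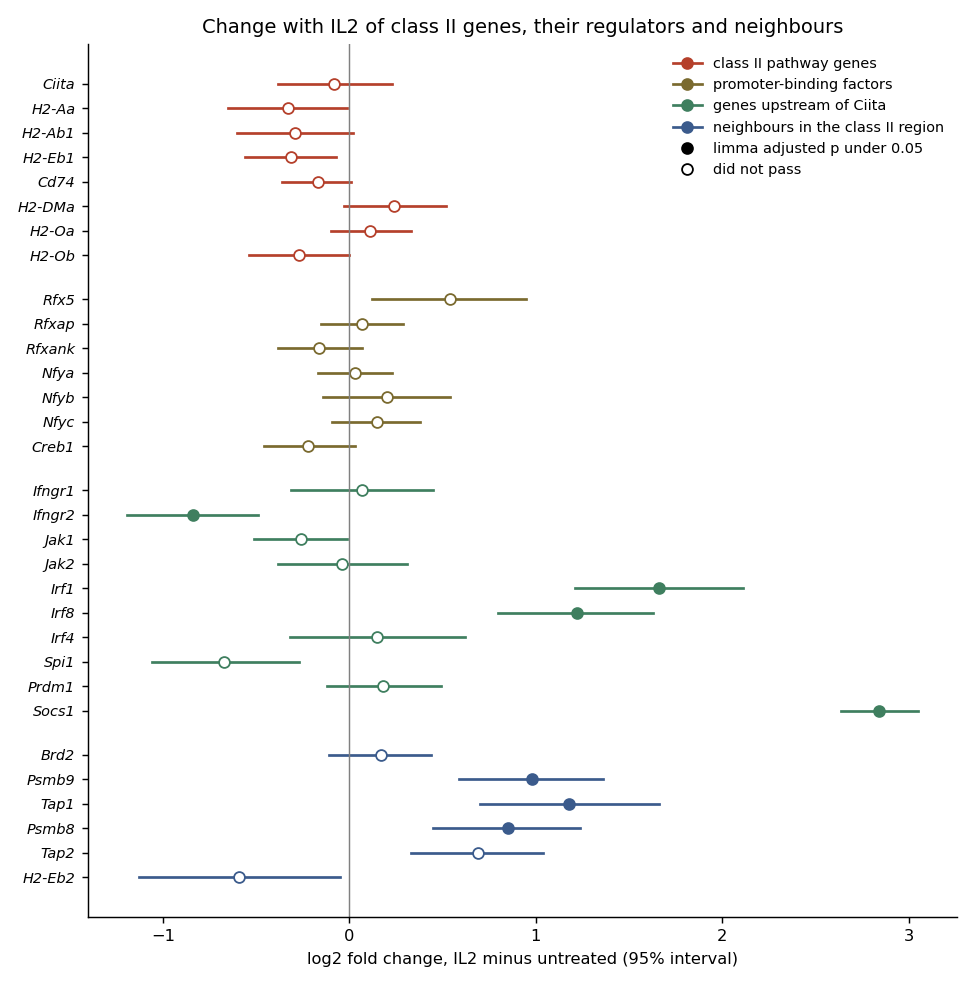
Log2 fold change, IL2 minus untreated, with the 95% interval of the limma fit for the 8 class II genes, 7 promoter-binding factors, 10 genes upstream of Ciita and 6 neighbours in the class II region; filled points passed the test at an adjusted p under 0.05. All 8 class II genes have open points between -0.33 and 0.24, while Socs1, Irf1, Irf8, Tap1, Psmb9 and Psmb8 have filled points above 0 and Ifngr2 below 0.

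The class II region of mouse chromosome 17 interleaves these genes with others, and its members did not move as a block. In RefSeq order the protein-coding genes are H2-Oa, Brd2, H2-DMa, H2-DMb2, H2-DMb1, Psmb9, Tap1, Psmb8, Tap2, H2-Ob, H2-Ab1, H2-Aa, H2-Eb1 and H2-Eb2. Psmb8 and Psmb9 encode immunoproteasome subunits and Tap1 and Tap2 the peptide transporter, all of which serve MHC class I. Of the 6 genes in this order that are not class II pathway genes by the choice above, 3 rose and 0 fell. Among all genes 2.08% were called higher and 0.901% lower. Tap1 had 10.55, 10.88, 11.10 and 11.05 in the IL2 arrays and 9.96, 9.25 and 9.92 in the untreated arrays. The IL2 arrays all lay above the untreated ones, and the log2 fold change was 1.18 (SE 0.21, limma adjusted p = 0.0265). Psmb9 and Psmb8 rose by 0.98 (SE 0.17) and 0.85 (SE 0.17), while Tap2 had 0.69 (SE 0.15, limma adjusted p = 0.065) and Brd2, a chromatin reader, had 0.17. Tap2 passed with the replicate block, the signal filter, quantile normalization again or array weights (limma adjusted p = 0.0223 to 0.0495). It also passed without IL2 replicate 1 or untreated replicate 2. It did not pass with title style as a block, median centring or other eBayes settings. H2-Eb2, a further class II beta chain gene, had -0.59 (SE 0.23, limma adjusted p = 0.312), the same sign as H2-Eb1 beside it. It had -0.32 without untreated replicate 2, and passed with title style as a block (-0.68, limma adjusted p = 0.0486). The sizes varied less than the calls: with 1 array left out Tap1 had 0.95 to 1.31, Psmb9 0.87 to 1.18 and Psmb8 0.75 to 0.98. However, 0 of the 6 were called higher without untreated replicate 3 or 4 or without IL2 replicate 2, 3 or 4, and Psmb8 also lost its call without untreated replicate 2.

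Some of the genes that act after transcription of the class II chains were called, where 2.98% of all genes were called in either direction. Of 8 measured genes for endosomal proteases and the thiol reductase, 2 fell and 0 rose. Lgmn, asparagine endopeptidase, had 8.56, 8.67, 9.18 and 9.27 in the IL2 arrays and 10.19, 9.82 and 10.20 in the untreated arrays, lower in each IL2 array than in any untreated array (-1.15, SE 0.20, limma adjusted p = 0.0265). Ctsl, cathepsin L, fell by 0.80 (SE 0.15, limma adjusted p = 0.0387). Both are also genes of macrophages, and the part of these cells was not tested. Of the 15 measured macrophage and monocyte markers 6 fell and 9 were not called, and 4 had positive estimates. Lgmn lost its call without IL2 replicate 2 or 3 or any 1 untreated array, and Ctsl without any 1 array other than IL2 replicate 1. Ctss, cathepsin S, which trims the invariant chain in B cells and dendritic cells, had -0.19 (limma adjusted p = 0.631), and Ifi30, the reductase GILT, had 0.06 (limma adjusted p = 0.898), both named after their values had been seen. Of 5 measured genes for turnover and membrane companions, 1 fell, the tetraspanin gene Cd81 (-0.81, SE 0.13, limma adjusted p = 0.0164), with the call lost without IL2 replicate 2 or 3 or untreated replicate 3 or 4. Of 6 co-stimulatory and co-inhibitory ligands of presenting cells, 1 rose, Cd274, which encodes PD-L1 and is an interferon target. It had 9.93, 10.24, 10.17 and 10.12 in the IL2 arrays and 8.68, 8.72 and 8.88 in the untreated arrays, with no overlap (1.36, SE 0.10, limma adjusted p = 0.00105). Without untreated replicate 2, 3 of these 6 ligands were called higher, and 2 without IL2 replicate 1. The count was also 3 with the signal filter, quantile normalization again or array weights. With either block, median centring or other eBayes settings the count was 2. Named after their values had been seen, Cd86 had 0.89 (limma adjusted p = 0.0991) and Pdcd1lg2 had 0.81 (limma adjusted p = 0.052). For both, every IL2 array lay above every untreated array, as was the case for 6.25% of all genes. In all, 4 of 36 measured pathway genes outside the class II set rose and 4 fell, beside 2.08% and 0.901% of all genes. The median log2 fold change of the 36 was 0.05.

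Genes with profiles most like those of 3 class II genes were found by the root mean square difference over the 7 arrays, each gene centred on its own mean, among 9868 genes of at least median signal. For Ciita these were Zfp362, Numb and Tulp4, at 0.035, 0.037 and 0.038 log2 units. For H2-Aa they were Asnsd1, Cop1 and Ube2b, at 0.050, 0.061 and 0.066, and for Cd74 they were Pde1b, Cramp1l and Marveld1, at 0.040, 0.042 and 0.043. None of these 9 genes was called, with limma adjusted p-values of 0.337 to 0.912. That follows largely from their choice, by likeness to genes that were not called. None is on the B cell, dendritic cell or macrophage marker lists, but these lists are short, and absence from them says nothing of cell type.

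**Figure D4:**
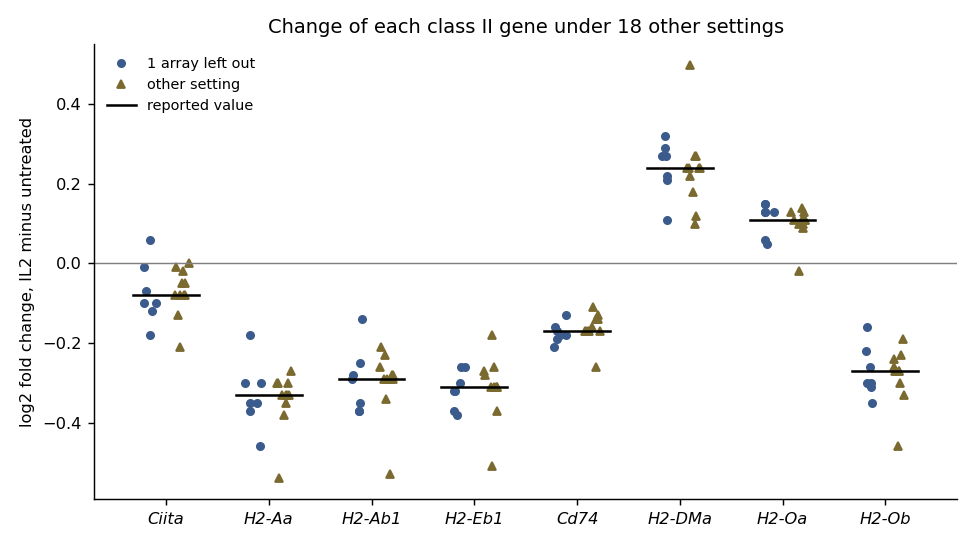
Log2 fold change of each of the 8 class II genes, IL2 minus untreated, as reported (line), with 1 array left out (circles) and under other settings (triangles), 18 alternatives in all. Estimates stay between -0.54 and 0.50, and cross 0 for Ciita and H2-Oa.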

How the data were processed

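Gene expression was measured on 7 Affymetrix Mouse Gene 1.0 ST arrays, in 2 groups taken from the sample titles. The deposited table holds a linear intensity for each probe set on each array, and per the submitters' processing notes RMA and Affymetrix Power Tools were used. Versions, RMA settings and the arrays normalized together are not given in the sources used here. Median intensities were 121.3 to 131.0 per array, and the number of arrays limits the precision. On 37.9% of the 24922 probes, arrays of 1 group held exactly equal values, as they did for H2-Ab1 and H2-Oa, 2 of the 8 class II genes, and equal values narrow the spread.

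Values were brought to log2 with no offset. Probes with 1 gene symbol (21425; 1399 had several and 2098 none) were kept, the brightest per gene by mean over all arrays. The RefSeq table (GRCm38.p6) held the Entrez identifier of 21347 probes, and 0 symbols changed. All 19752 genes were fitted in limma 3.58.1 (R 4.3.3) as IL2 against untreated with eBayes, and p-values were adjusted by Benjamini-Hochberg over all genes, with a threshold of 0.05. Fold changes are IL2 over untreated, SE and 95% intervals are those of the moderated fit, and the script was tested on simulated data. The class II genes and all lists were chosen from general knowledge with earlier results of these data known. Named genes were the class II genes, every promoter-binding factor and region neighbour, and the 2 called genes of largest change of each other list (the largest 1 where none was called), with the 3 nearest profiles of Ciita, H2-Aa and Cd74. Cell type marker results that the report does not name were Prf1 and Nkg7 of NK cells, higher by 2.83 and 2.27, and Adgre4 and Vcan of macrophages and Mmp8 of neutrophils (1 of 8 markers called), with -3.00, -3.00 and -2.49. Bst2 (0.75) and Cd5 (-0.51), of the plasmacytoid and T cell lists, did not pass. Some list members were not analysed here. Alternatives were blocks on replicate number or title style, a signal filter, other scalings (quantile again, median centring), other eBayes settings, array weights (statmod 1.5.0), other probe choices, subsets by title style and each array left out.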

Additional observations from a re-analysis of the deposited data

Results flagged for a closer look

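H2-Oa, the alpha chain gene of the exchange inhibitor, had 1 IL2 array far from the others. IL2 replicate 2 stood at 9.12, against 8.92 to 8.93 on the other IL2 arrays, and its gap to the nearest of them was 0.947 of the group's whole range. This was the 1 that passed of 9 such tests, 1 for each of the 8 genes and the shared probe, all in the IL2 group. Chance passes about 1 in 20 of single tests, so 1 among 9 is not unusual. The untreated group, with 3 arrays, was not tested. Without IL2 replicate 2 the log2 fold change of H2-Oa was 0.06, and its limma adjusted p was 0.91.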

How the results depend on the processing

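Under all 18 alternatives limma called 0 of the 8 class II genes higher and 0 lower. The smallest adjusted p of a class II gene was 0.0592, for H2-Eb1 after quantile normalization again. Of 144 values of class II genes under alternatives, 141 kept their sign and 3 did not: Ciita had 0.0002 in the arrays with the time in their title and ranged from -0.18 to 0.06 with 1 array left out, and H2-Oa had -0.02 after quantile normalization again. The number with an unadjusted p under 0.05 was 3 as reported, 5 with title style as a block and 0 without untreated replicate 2. With the replicate number as a block, log2 fold changes were -0.35 for H2-Aa, -0.28 for H2-Ab1, -0.26 for H2-Eb1 and -0.26 for H2-Ob, and 0 were called. Under that block Lgmn had -1.03 (limma adjusted p = 0.0503), which left 1 protease gene called lower against 2. The numbers were not taken to pair the arrays. Deviations from the group means of same-numbered arrays correlated at 0.460, -0.299 and 0.308 for replicates 2, 3 and 4. Untreated replicates 2 and 4 were each most like the IL2 array of their number, while IL2 replicate 3 was most like untreated replicate 4 (0.293). Deviations from means of 4 and 3 arrays force some negative correlations, so these values cannot decide whether the numbers pair the arrays. Among the other genes, in the arrays without the time in their title Rfxap had -0.02, Nfyb -0.05 and Nfyc -0.05. Rfxap ranged from -0.03 to 0.12 and Nfya from -0.03 to 0.09 with 1 array left out, and Nfya had -0.10 after quantile normalization again. After quantile normalization again 5 B cell markers and 3 conventional dendritic cell markers were called lower, against 1 and 1 as reported. With 1 array left out, calls over all genes were 134 to 517 higher and 65 to 152 lower. The causes were not tested. The arrays without the time in their title include 1 untreated array, and limma called 0 of all genes there, with log2 fold changes of 2.84 for Socs1, 0.95 for Irf8 and 0.75 for Tap1, beside 2.84, 1.22 and 1.18 as reported.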
